A study of Mus musculus with 6 samples.

Results

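The transcripts described here are those of 10 genes of cytosolic innate sensing in mouse macrophages: the NOD receptors Nod1 and Nod2, their kinase Ripk2, the inflammasome sensors Nlrp3, Aim2 and Naip5, the adaptor Pycard, the caspase genes Casp1 and Casp4, and the pore-forming effector Gsdmd. They were chosen by name for their function, with earlier results of these data known. Each symbol matched 1 of the 55487 Ensembl gene identifiers of the deposited files through the GENCODE M21 annotation (GRCm38). The data are RNA-seq libraries of J774 cells, a macrophage line established from a BALB/c mouse tumor, of which the study used clone E. All cells were transfected with siRNA by liposomes. Of the 6 libraries, 3 came from cells given a negative control siRNA (labelled genotype control) and 3 from cells given an NCOA4-specific siRNA (labelled NCOA4 knockdown), and both sets are labelled as biological replicates. No bacterial ligand or other stimulus is named for any library, the NCOA4 group rests on 1 siRNA, and the time between transfection and RNA isolation is not given for these libraries in the sources used here. NCOA4 is the cargo receptor that carries ferritin to the lysosome, and the comparison asks how macrophage gene expression differs when it is depleted.

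NOD1 and NOD2 are cytosolic receptors for fragments of bacterial peptidoglycan. Once bound, both recruit the kinase RIPK2, which starts signaling to NF-κB and MAP kinases. Inflammasomes are complexes in which a sensor (NLRP3 for membrane and ion disturbance, AIM2 for cytosolic DNA, NAIP proteins with NLRC4 for flagellin and secretion-system proteins) activates caspase-1, mostly through the adaptor ASC, which Pycard encodes. Caspase-1 then matures interleukin-1β and interleukin-18 and cuts gasdermin D, whose fragment forms pores in the plasma membrane, and caspase-11 (Casp4) cuts gasdermin D after binding cytosolic lipopolysaccharide. All of these steps act on proteins, whereas the values below are transcript levels.

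The unit throughout is TPM, in which read numbers are corrected for the length of the gene and set to a sum of 1000000 in each library. Means stand with ± SD over the 3 libraries of a group. Whole reads could be rebuilt from TPM and gene length, and they numbered between 15740333 and 18565408 per library on genes. Ncoa4, the siRNA target, had 19.7, 22.5 and 22.4 TPM with control siRNA and 9.63, 8.60 and 8.88 TPM with NCOA4 siRNA, so that its mean fell to 41.9% of control (log2 fold change -1.21, limma adjusted p = 0.00127). Of 10 macrophage marker genes, all were detected in every library, and they summed to between 10147 and 10408 TPM in the controls and between 10753 and 10890 TPM with NCOA4 siRNA. Of the 10, 7 were higher in every NCOA4 siRNA library than in every control, such as Adgre1 (89.4 to 118 and 157 to 169 TPM) and Fcgr1 (77.9 to 90.0 and 127 to 129 TPM). In contrast, 2 were lower without overlap, Cd68 (1709 to 2060 and 1507 to 1612 TPM) and Cd14 (1096 to 1224 and 958 to 996 TPM). Over the 13829 genes tested below, 16.6% were higher and 11.8% lower without overlap. The part of the marker differences in the results below was not tested. Among 21 markers of T cells, B cells, neutrophils, fibroblasts, epithelial and erythroid cells, only S100a8 had a mean of at least 0.5 TPM (15.3 to 25.2 TPM per library), while the neutrophil markers S100a9 and Ly6g, the T cell markers Cd3e and Cd8a, the B cell marker Ms4a1 and all 3 erythroid markers were listed at 0 in every library. Control replicate 1 stood apart from the others. The genes of the mitochondrial genome made up 12.9% of its TPM, against 9.36% to 10.2% in the other 5 libraries, and it differed from control replicates 2 and 3 by a chi-square per gene of 11.8, against 3.62 between replicates 2 and 3 and 1.96 to 2.38 among NCOA4 siRNA replicates. In bulk RNA, fewer cells with a transcript and less of it per cell cannot be told apart.

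The 10 transcripts covered almost 2 orders of magnitude in TPM. For the genes other than Casp1, the length used is that of all annotated exons, such as 3800 bases for Pycard. Where the expressed transcripts are shorter, TPM understates the level of that gene beside others. Which transcripts were expressed was not tested, so the order below is one of TPM values. With control siRNA, Aim2 had the highest mean at 95.8 TPM, followed by Nlrp3 at 82.2, Gsdmd at 48.3, Casp1 at 44.2, Pycard at 44.1, Ripk2 at 22, Naip5 at 8.0, Casp4 at 3.89, Nod2 at 3.81 and Nod1 at 1.23 TPM. The control replicates of neighbors in this order did not overlap, apart from Casp1 with Pycard and Casp4 with Nod2. With NCOA4 siRNA the order changed at a pair of places. Casp1 (55.6 TPM) came before Gsdmd (52.3 TPM), with overlapping replicates, and Nod2 (6.52 TPM) came before Casp4 (4.49 TPM) without overlap. The level of Casp1 carries an additional limit. The length that turns its TPM into whole reads is 3136 bases, whereas its exons in M21 span 1497 bases, so the gene model that was counted was longer than the one used here for names and positions. Casp1 levels set beside other genes depend on that model. In its fold change the length largely cancels, but the reads that were counted depend on the model as well. The effect of the model on the fold change was not tested.

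**Figure D1:**
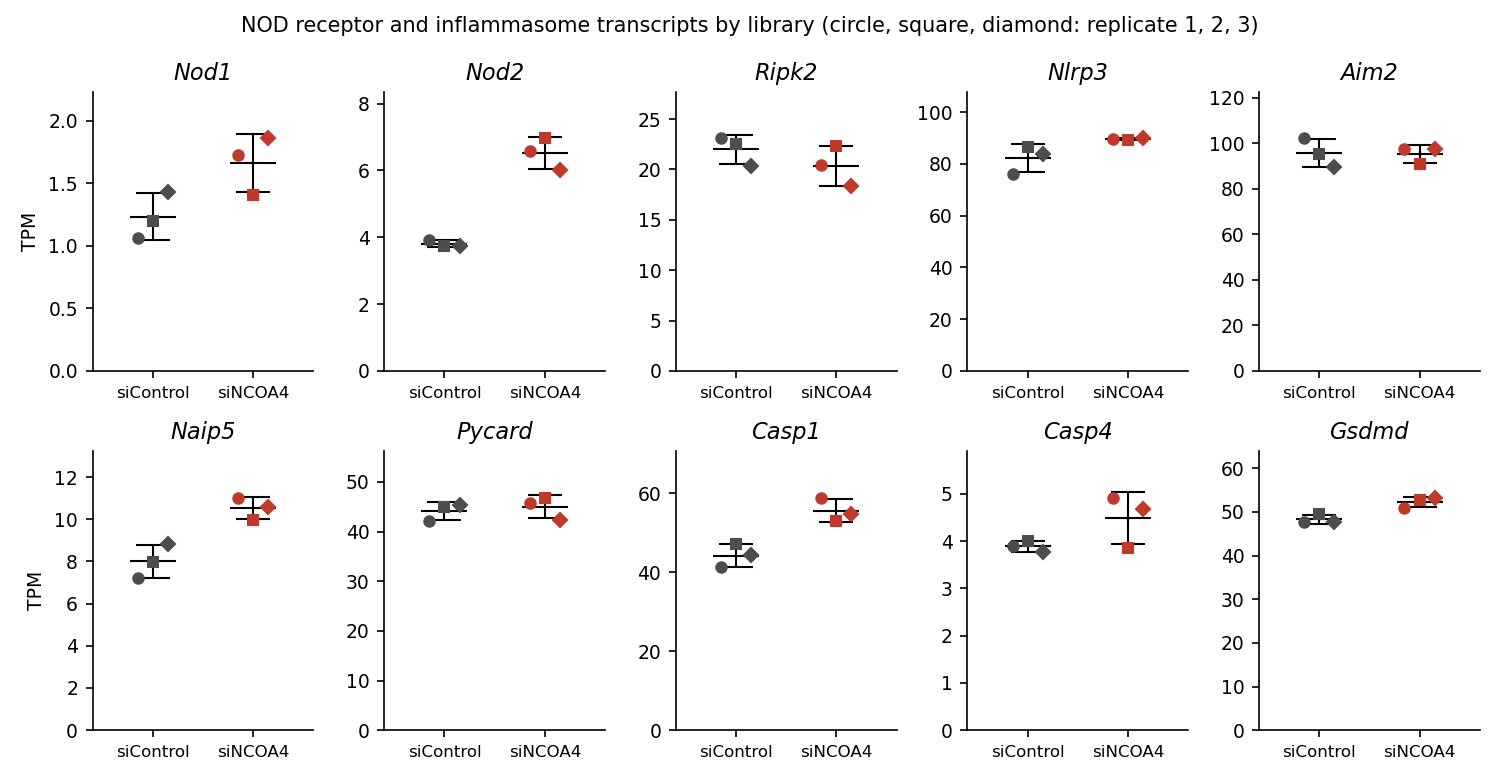
TPM (y axis, starting at 0) of each of the 10 genes in the 3 control siRNA and 3 NCOA4 siRNA libraries, with the mean and SD as bars. The groups are separate for Nod2, Nlrp3, Naip5, Casp1 and Gsdmd, with the widest gap between the means relative to control for Nod2, and overlap for the other 5 genes.

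The groups were compared by limma on a log2(TPM + 0.5) scale in the 13829 genes that averaged at least 0.5 TPM, a filter that all 10 genes passed. Adjusted p refers to the Benjamini-Hochberg procedure over the 13829 genes. On this scale the fold change of a gene with low TPM comes out smaller than its ratio of means. Nod2 and Casp1 rose with NCOA4 siRNA and none of the 10 fell at an adjusted p under 0.05, a threshold that 5.42% of all tested genes passed, 3.11% as higher and 2.31% as lower. The split of all genes that passed depended on the scaling of the libraries, with 430 higher and 320 lower as deposited and 348 higher and 622 lower after median centring. At an unadjusted p under 0.05, limma gave 4 of the 10 as higher (Naip5 and Gsdmd besides) and 0 as lower, against 12.7% and 8.84% of all tested genes. Nod2 also exceeded a fold change of 1.5, as did 1.18% of all tested genes in either direction and 0.861% upward. The groups did not overlap in 5 of the 10 genes and in 28.4% of all tested genes. In all 5 every NCOA4 siRNA library was above every control library, a pattern seen in 16.6% of tested genes, and in 0 of the 10 was every NCOA4 siRNA library below (11.8% of tested genes). Without control replicate 1, 2 of the 10 genes passed as well, beside 841 of the 13868 genes tested in that fit. Of the 10 log2 fold changes, 8 were positive, as were 57.4% over all tested genes, and the median was 0.15, against 0.03 over all tested genes. After median centring 7 were positive, Pycard having become negative, against 5987 of the 13829 tested genes. For single genes, an exact permutation test of 3 libraries against 3 cannot give a two-sided p below 0.1, and this smallest value was reached by the 5 genes whose groups were separate.

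**Figure D2:**
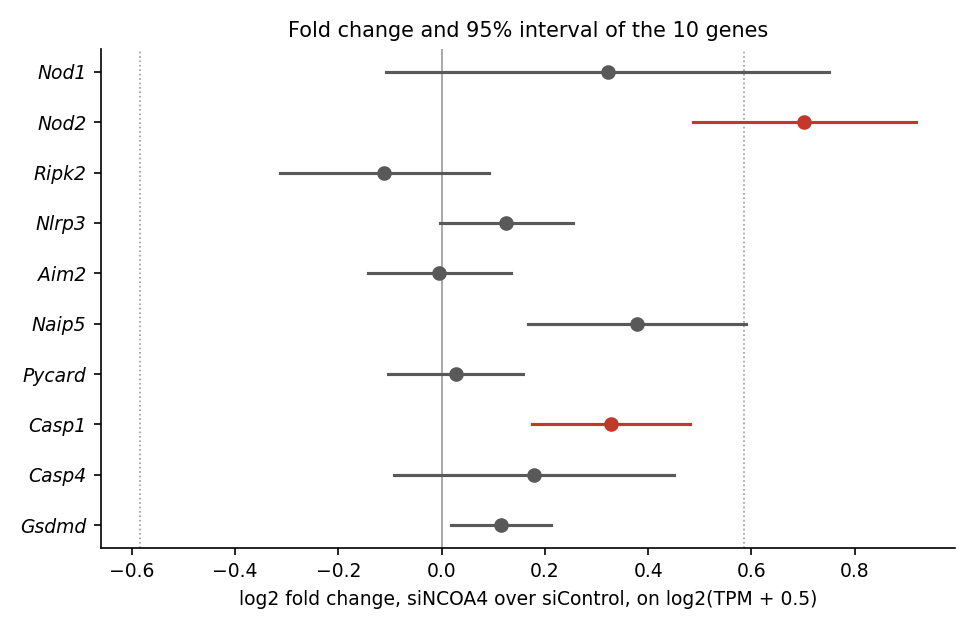
Log2 fold change (x axis, NCOA4 siRNA over control siRNA) of the 10 genes with 95% intervals from limma, with genes of adjusted p under 0.05 in red and dotted lines at a fold change of 1.5 in either direction. Only Nod2 (0.70) lies beyond the dotted line, and the intervals of Nod1, Ripk2, Nlrp3, Aim2, Pycard and Casp4 include 0.

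Nod2, the receptor for muramyl dipeptide, had the largest log2 fold change of the 10 genes. Its level was 3.92, 3.75 and 3.75 TPM in control replicates 1 to 3 and 6.59, 6.96 and 6.02 TPM in NCOA4 siRNA replicates 1 to 3, resting on 98 to 192 reads per library. The control libraries lay close together and the lowest NCOA4 siRNA library was well above them. The mean rose from 3.81 ± 0.101 to 6.52 ± 0.474 TPM, a log2 fold change of 0.70 (standard error 0.0910, 95% interval 0.49 to 0.92, limma adjusted p = 0.00996). Rebuilt reads tested with limma-voom gave a log2 fold change of 0.78. When NCOA4 siRNA replicate 1 or 2 was left out, the adjusted p became 0.0612 or 0.0592 at log2 fold changes of 0.69 and 0.66, and over all 16 alternative settings it ranged from 0.000592 to 0.0612. The gene lies on chromosome 8 (chr8:88647315-88688474, plus strand, GRCm38), its exons overlap no other annotated gene, and none of the 100-base windows of its transcripts occurs in another gene's transcripts.

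Nod1, which binds peptidoglycan fragments with meso-diaminopimelic acid, had the lowest TPM of the 10 genes. Its level was 1.06, 1.2 and 1.44 TPM with control siRNA and 1.73, 1.41 and 1.86 TPM with NCOA4 siRNA, on only 31 to 57 reads per library. NCOA4 siRNA replicate 2 lay within the range of the controls. The log2 fold change of 0.32 (95% interval -0.11 to 0.75) did not pass the threshold, and its interval includes both 0 and the 0.70 of Nod2. Ripk2, the kinase on which both receptors signal, had 23.1, 22.6 and 20.4 TPM with control siRNA and 20.4, 22.3 and 18.4 TPM with NCOA4 siRNA. The groups overlapped, with a log2 fold change of -0.11 (95% interval -0.31 to 0.09). The interval corresponds to a fold change between 0.805 and 1.06, so an increase of the size seen for Nod2 lies outside it. Within a library, the ratio of Nod2 to Ripk2 TPM does not depend on the scaling between libraries. It was 0.170, 0.166 and 0.184 in the controls and 0.323, 0.312 and 0.328 with NCOA4 siRNA, without overlap (exact two-sided permutation test, p = 0.1, adjusted p = 0.2 over 8 ratios). The ratio of Nod2 to Nod1 was 3.14 ± 0.540 and 3.99 ± 0.865, and its values overlapped.

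Among the sensors, Nlrp3 and Aim2 were both abundant without any stimulus being named. Nlrp3 had 76.0, 86.5 and 84.0 TPM with control siRNA and 89.8, 89.1 and 89.8 TPM with NCOA4 siRNA. The NCOA4 siRNA libraries were all above the controls and very close to each other, and the lowest value belonged to control replicate 1. The log2 fold change was 0.13 (95% interval -0.0030 to 0.25, limma adjusted p = 0.243), and 0.07 without control replicate 1. Aim2, the receptor for double-stranded DNA, had 102, 95.5 and 89.6 TPM with control siRNA and 97.6, 91.0 and 97.5 TPM with NCOA4 siRNA. The groups overlapped, and the 95% interval of the fold change was 0.905 to 1.10. The ratio of Aim2 to Nlrp3 was 1.34 in control replicate 1 and 1.02 to 1.10 in the other 5 libraries.

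Naip5, which recognizes bacterial flagellin and passes the signal to NLRC4, had 7.23, 7.96 and 8.81 TPM with control siRNA and 11.0, 9.98 and 10.6 TPM with NCOA4 siRNA. All NCOA4 siRNA libraries were above the controls. Its log2 fold change of 0.38 (standard error 0.0890, 95% interval 0.17 to 0.59) just missed the threshold (limma adjusted p = 0.0613), and over the 16 alternative settings the adjusted p ranged from 0.0102 with limma-voom on the rebuilt reads to 0.208 without NCOA4 siRNA replicate 1. The assignment of its reads is uncertain, because 16.2% of the 100-base windows of its transcripts also occur in transcripts of Naip1, Naip2, Naip6 or the Naip3 genes. The summed TPM of Naip1, Naip2, Naip5 and Naip6 is less affected by such exchange. It was 41.1, 43.5 and 40.4 with control siRNA and 52.5, 50.8 and 53.3 with NCOA4 siRNA, or 125% of control without overlap between groups (exact two-sided permutation test, p = 0.1). Naip2, the most abundant of these, had 25.8 ± 2.35 and 32.2 ± 1.22 TPM, a log2 fold change of 0.32 with an adjusted p of 0.0581. The partner Nlrc4, for which no transcript window is shared with another gene, rose from 10.2, 10.9 and 10.9 TPM to 15.3, 13.7 and 13.5 TPM, a log2 fold change of 0.39 (limma adjusted p = 0.0275). Its call was lost whichever library was left out (0.0511 to 0.104), and over the 16 alternative settings the adjusted p ranged from 0.00401 to 0.111. The ratio of Naip5 to Nlrc4 stayed within the spread of the replicates, at 0.749 ± 0.0529 and 0.743 ± 0.0343.

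Pycard, the adaptor that joins sensors to caspase-1, was expressed in J774 cells at 42.2, 44.9 and 45.3 TPM with control siRNA and at 45.8, 46.8 and 42.4 TPM with NCOA4 siRNA. The groups overlapped, and the 95% interval of its fold change was 0.931 to 1.12. An annotated gene of the opposite strand, Gm45205, shares 485 of its 3800 exon bases, and the strand setting used in counting is not given in the sources used here. Casp1, the protease at the center of the inflammasome, had 41.2, 47.1 and 44.3 TPM with control siRNA and 58.9, 53.0 and 54.9 TPM with NCOA4 siRNA, on 725 to 1072 reads per library. All NCOA4 siRNA libraries were above all controls. The mean rose from 44.2 ± 2.94 to 55.6 ± 2.98 TPM, a log2 fold change of 0.33 (standard error 0.0646, 95% interval 0.17 to 0.48, limma adjusted p = 0.0364). This change was smaller than the 1.5-fold limit, and the call depended on single libraries. Omitting control replicate 3 raised the adjusted p to 0.0887, and omitting an NCOA4 siRNA library raised it to between 0.0934 and 0.136, while the log2 fold change stayed between 0.29 and 0.36. Over all 16 alternative settings the adjusted p ranged from 0.00299 to 0.136. Relative to Pycard in the same library, Casp1 was at 0.977, 1.05 and 0.978 with control siRNA and at 1.28, 1.13 and 1.29 with NCOA4 siRNA, without overlap.

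Casp4 encodes caspase-11, the sensor of cytosolic lipopolysaccharide, and follows Casp1 on the same strand of chromosome 9, where Casp1 spans chr9:5298517-5307265 and Casp4 chr9:5308828-5336783 (GRCm38). In contrast to Casp1, it was at only 3.90, 4.0 and 3.77 TPM with control siRNA and 4.92, 3.86 and 4.69 TPM with NCOA4 siRNA, on 73 to 106 reads. NCOA4 siRNA replicate 2 lay among the controls, and the log2 fold change of 0.18 (95% interval -0.09 to 0.45) did not pass the threshold. The ratio of Casp1 to Casp4 overlapped between control siRNA (11.4 ± 0.682) and NCOA4 siRNA (12.5 ± 1.11), so a different response of these neighbors was not shown. Gsdmd, the pore-forming substrate of both caspases, had 47.7, 49.5 and 47.7 TPM with control siRNA and 51.0, 52.7 and 53.3 TPM with NCOA4 siRNA. The groups were separate but close, with a log2 fold change of 0.11 (95% interval 0.02 to 0.21, limma adjusted p = 0.170).

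To show the DNA in front of these genes, promoter windows were taken from RefSeq (GRCm38.p6, reference strain C57BL/6J, not the strain of J774), each from 250 bases before to 50 bases after an annotated start and written 5′ to 3′ along the gene. Windows were held for 8 of the 10 genes, all but Ripk2 and Gsdmd. Those of Nod2 and Casp1 are printed because these genes rose, and that of Casp4 because it is the neighbor of Casp1. Capitals mark matches, on either strand, to the NF-κB consensus, to the core of the interferon-stimulated response element (GAAA, any 2 bases, GAAA), to the STAT site TTCNNNGAA or to the PU.1 core GAGGAA, where N is any base and matches may overlap.
Nod2, chr8:88647097-88647396, plus strand: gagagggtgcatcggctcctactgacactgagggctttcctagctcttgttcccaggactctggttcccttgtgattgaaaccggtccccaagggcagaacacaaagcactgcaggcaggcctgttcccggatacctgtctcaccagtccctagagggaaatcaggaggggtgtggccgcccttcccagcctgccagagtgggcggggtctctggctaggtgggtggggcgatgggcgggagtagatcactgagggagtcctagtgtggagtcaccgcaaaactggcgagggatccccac
Casp1, chr9:5298267-5298566, plus strand: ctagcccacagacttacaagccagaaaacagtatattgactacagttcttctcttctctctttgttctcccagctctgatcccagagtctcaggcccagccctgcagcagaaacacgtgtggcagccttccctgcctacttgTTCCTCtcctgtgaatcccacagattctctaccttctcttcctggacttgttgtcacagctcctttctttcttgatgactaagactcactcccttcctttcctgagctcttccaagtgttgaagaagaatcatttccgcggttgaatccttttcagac
Casp4, chr9:5308599-5308898, plus strand: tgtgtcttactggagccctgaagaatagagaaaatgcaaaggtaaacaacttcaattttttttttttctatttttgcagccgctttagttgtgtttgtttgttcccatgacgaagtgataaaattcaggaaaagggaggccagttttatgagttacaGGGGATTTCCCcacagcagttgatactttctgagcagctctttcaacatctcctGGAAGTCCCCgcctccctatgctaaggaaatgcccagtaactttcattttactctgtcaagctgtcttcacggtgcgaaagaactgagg
The Nod2 window held 0 matches to these 4 patterns and the Casp1 window 1, to the PU.1 core with its leftmost base 108 bases before the start. The Casp4 window held 3 matches to the NF-κB consensus, a pair of which overlap almost entirely, starting 93, 92 and 39 bases before the start. The windows of Naip5 and of 1 of the starts of Nlrp3 held 1 NF-κB match each, and none of the 11 windows of the 8 genes held the interferon element. Over all 32851 promoter windows of this length, 8.46% held the NF-κB consensus, 3.44% the interferon element, 8.30% the STAT site and 28.3% the PU.1 core. A match in letters does not show that a factor binds.

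**Figure D3:**
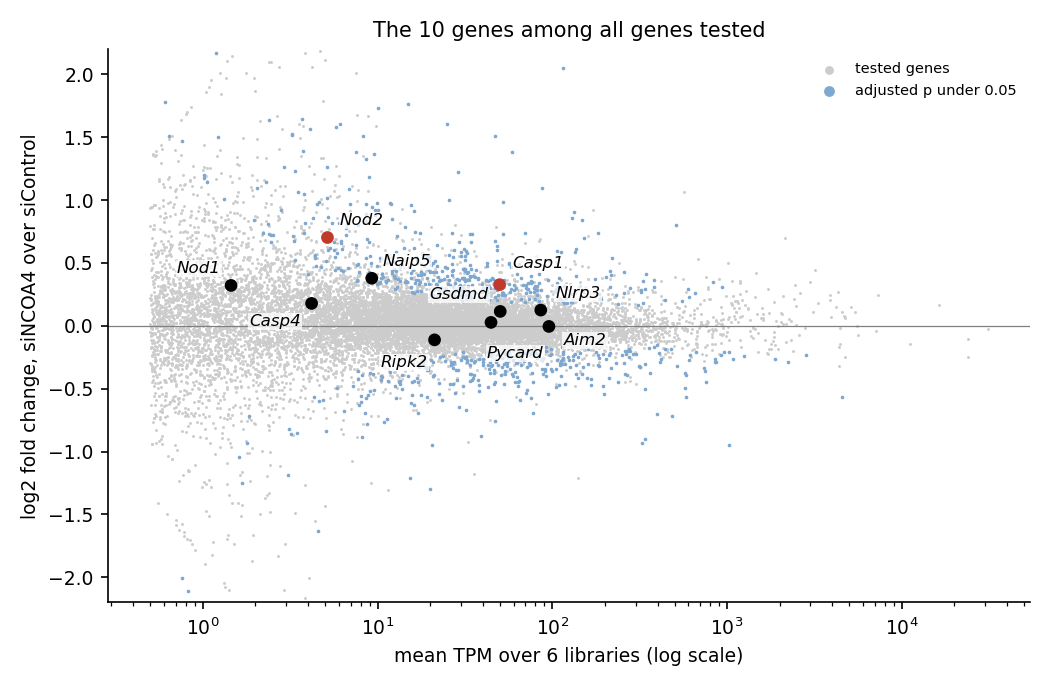
Log2 fold change (y axis, NCOA4 siRNA over control siRNA) against the mean TPM over 6 libraries (x axis, log scale) for the 13829 tested genes, of which 13 lie outside the plotted range. Nod2 and Casp1 are in red and the other 8 genes in black, with Nod1, Casp4, Nod2 and Naip5 at means below 10 TPM and the others between 21.2 and 95.6 TPM.

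The other genes of these pathways were described with 6 lists of 99 genes in all, of which 79 passed the filter on TPM. Of the 79, 12 rose and 2 fell at an adjusted p under 0.05, and 0 of these 14 exceeded a fold change of 1.5. The median log2 fold change of the 79 was 0.09 with 62 positive, against 0.03 with 7933 of 13829 positive over all tested genes. After median centring it was 0.03 with 48 positive, against -0.03 with 5987 positive over all tested genes. The share that passed was 17.7%, against 5.42% of all tested genes, in lists chosen with earlier results of these data known. The number that passed depended on single libraries. It was 13 when control replicate 1 was left out, 8 for control replicate 2 and 5 for control replicate 3, and it dropped to 0 when NCOA4 siRNA replicate 1 was left out (19 higher and 2 lower of 79 at an unadjusted p under 0.05) and to 1 for either replicate 2 or replicate 3. Over all genes tested without NCOA4 siRNA replicate 1, 8.79% were higher and 6.74% lower at that unadjusted p, and 1.27% passed. Each of the 14 genes lost its call in some of the 16 alternative settings. The call was kept in 13 of 16 for Mndal and Il1a, in 11 for Ifi203, in 10 for P2rx7, Trim30a and Casp8, in 9 for Cyld and Serpinb9, in 8 for Nlrc4 and Ctsb, in 7 for Il18 and in 5 for Card9.

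Of 26 tested genes of signaling between the NOD receptors and NF-κB, 2 rose, 0 fell and 24 did not pass. Their median log2 fold change was 0.07, and 21 values were positive (57.4% of all tested genes). After median centring the median was 0.02, 16 values were positive (5987 of all 13829 tested genes) and 1 gene passed. Card9, an adaptor that couples NOD2 and C-type lectin receptors to downstream kinases, rose from 118 ± 7.0 to 140 ± 3.99 TPM, a log2 fold change of 0.25 (limma adjusted p = 0.0451). This call depended on the scaling of the libraries, with adjusted p-values of 0.119 after median centring, 0.0521 after quantile normalization and 0.0632 without mitochondrial genes, and a range from 0.00785 to 0.171 over the 16 alternative settings. Cyld, a deubiquitinase that restrains NF-κB signaling, rose from 11.3 ± 0.451 to 14.8 ± 0.866 TPM, a log2 fold change of 0.37 (limma adjusted p = 0.0273). The most abundant genes that did not pass were the inhibitor Nfkbia, at 136 ± 8.86 and 132 ± 3.74 TPM, and the ubiquitin ligase subunit Rbck1, at 100.2 ± 4.94 and 107 ± 3.44 TPM. Of the genes for transport and processing of peptidoglycan fragments, 0 of 6 tested genes passed with limma, and 2 were higher at an unadjusted p under 0.05 (12.7% of all tested genes). These were Slc46a3, named after its values were seen, and the lysozyme gene Lyz2, and both passed with limma-voom on the rebuilt reads, as did 10.8% of all tested genes. Slc46a3, a lysosomal transporter, had 1.42, 0.537 and 0.624 TPM with control siRNA and 2.45, 1.57 and 2.29 TPM with NCOA4 siRNA, on 8 to 35 reads per library. The groups were separate, control replicate 1 coming close to the lowest NCOA4 siRNA value, at a log2 fold change of 0.98 (limma adjusted p = 0.115). Lyz2 was at 4885 ± 193 and 5409 ± 51.7 TPM, also without overlap. The lysosomal peptide transporter Slc15a3, at 85.4 ± 0.665 and 87.1 ± 1.53 TPM, did not pass.

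Of 13 tested genes in the list of other NLR family receptors and inflammasome sensors, 3 rose and 0 fell. All 13 log2 fold changes were positive, with a median of 0.26, and 12 of 13 were positive after median centring or quantile normalization, with medians of 0.20 and 0.18. Of the 13829 tested genes, 7933 were positive as deposited, 5987 after median centring and 6713 after quantile normalization. The 13 values are not fully separate, since transcripts of Naip1, Naip2 and Naip6 share windows with each other. Besides Nlrc4, the genes that rose were Ifi203 and Mndal, members of the interferon-inducible HIN-200 family to which Aim2 belongs. Ifi203 rose from 27.0 ± 2.45 to 36.6 ± 1.18 TPM and Mndal from 26.8 ± 1.09 to 35 ± 1.65 TPM, log2 fold changes of 0.43 and 0.38 (limma adjusted p = 0.0229 and 0.0153). These genes have close relatives, and 2.84% and 6.38% of their 100-base transcript windows are shared with other genes. Their annotated spans also overlap on the minus strand, at chr1:173920407-173942672 for Ifi203 and chr1:173849126-173942491 for Mndal. The length of Mndal was inferred, as for Casp1, and an overlap of their exons was not examined. The 95% interval of Aim2, of the same family, ran from -0.14 to 0.13 in log2 fold change. Nlrx1, the most abundant gene after Naip2 that did not pass, was at 10.2 ± 0.893 and 11.3 ± 0.202 TPM. A further 8 genes of the list were below the filter, and Nlrp2, Nlrp6, Nlrp9b, Ciita and Mefv were listed at 0 in all libraries.

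Genes that trigger or regulate NLRP3 moved in both directions. Of 15 tested genes 2 rose and 1 fell, with a median of 0.04 as deposited and -0.01 after median centring. P2rx7, the ATP-gated channel that triggers NLRP3, rose from 38.8 ± 1.79 to 46.5 ± 0.582 TPM, and Trim30a, a negative regulator of NLRP3, from 7.54 ± 0.589 to 10.9 ± 0.798 TPM, log2 fold changes of 0.26 and 0.50 (limma adjusted p = 0.0299 and 0.0257). Ctsb, a lysosomal protease, fell from 1358 ± 60.0 to 1151 ± 18.1 TPM, a log2 fold change of -0.24 (limma adjusted p = 0.0337). Txnip, at 506 ± 27.3 and 559 ± 10.5 TPM, and Mavs, at 97.8 ± 3.52 and 97.7 ± 1.21 TPM, did not pass. The guanylate-binding protein genes Gbp2, Gbp3, Gbp5 and Gbp7, which act on cytosolic bacteria upstream of caspase-11, stayed below the filter, with no value above 0.863 TPM. Near this floor, Gbp3 (0 to 17 reads per library) and Gbp7 (0 to 14 reads) were higher in every NCOA4 siRNA library than in every control. Gbp2 overlapped between groups and Gbp5 was listed at 0 in all libraries.

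Among the other caspases, 3 of 6 tested genes rose and 0 fell, against 3.11% and 2.31% of all tested genes. Their median log2 fold change was 0.22, and 0.16 after median centring. Casp8, which starts apoptosis at death receptors, rose from 85.2 ± 3.37 to 101 ± 1.88 TPM, a log2 fold change of 0.24 (limma adjusted p = 0.0264), beside 0.33 for Casp1. Casp2 and Casp9, at 0.18 and 0.20, did not pass. Casp6 went the other way, from a mean of 7.54 to 6.71 TPM without overlap. Its log2 fold change of -0.16 did not pass. Of the substrates of caspase-1, Il18 rose from 15.2 ± 1.01 to 20.4 ± 1.49 TPM, a log2 fold change of 0.41 (limma adjusted p = 0.0314). Il1b, named after its values were seen, was scarce at 1.92, 2.94 and 3.02 TPM with control siRNA and 5.60, 5.68 and 3.13 TPM with NCOA4 siRNA. All its NCOA4 siRNA values were above the controls, replicate 3 only narrowly, and it did not pass (limma adjusted p = 0.155). Il1a, whose product is released upon membrane rupture, rose from 22 ± 1.03 to 31.2 ± 2.15 TPM, a log2 fold change of 0.49 (limma adjusted p = 0.0121). Serpinb9, a protease inhibitor, fell from 6.91 ± 0.349 to 4.75 ± 0.128 TPM, a log2 fold change of -0.50 (limma adjusted p = 0.0207). Chmp4b, of the membrane repair machinery, at 363 ± 12.1 and 371 ± 10.9 TPM, and Ninj1, which mediates membrane rupture, at 203 ± 7.50 and 188 ± 3.15 TPM, did not pass. In this list of 13 tested genes 2 rose, 1 fell and the median was 0.03, or -0.03 after median centring.

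**Figure D4:**
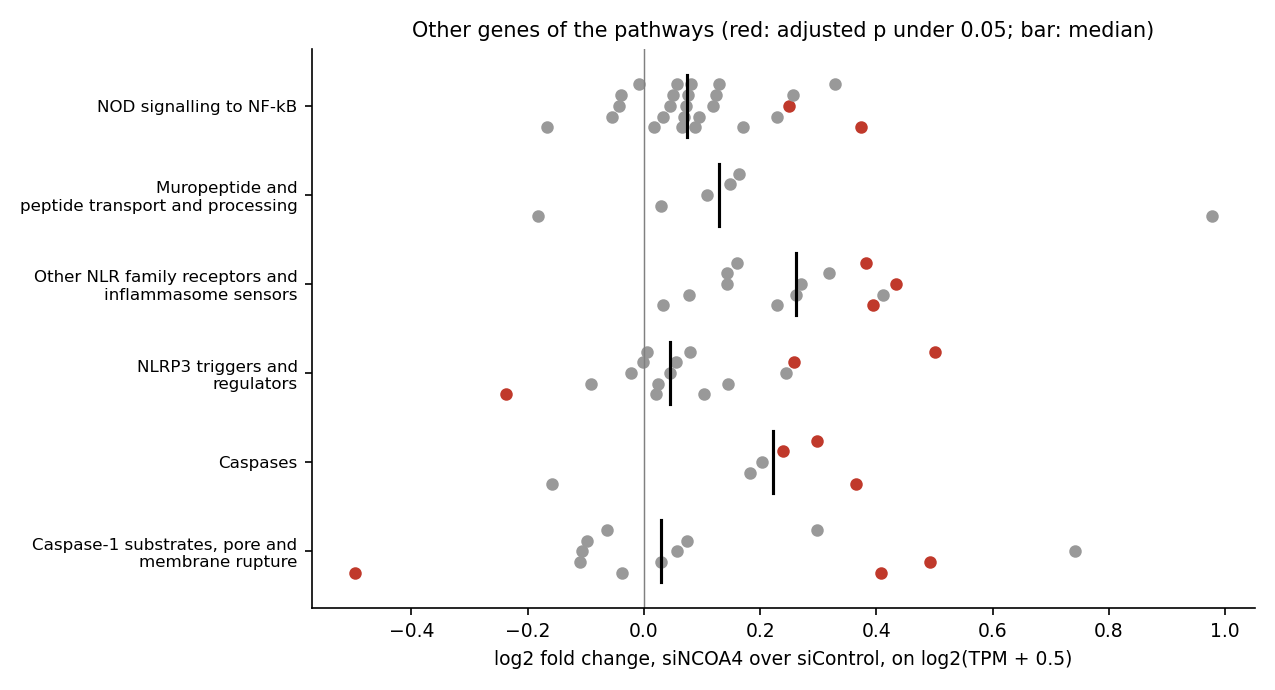
Log2 fold change (x axis, NCOA4 siRNA over control siRNA) of the 79 tested pathway genes in 6 lists, 1 point per gene, with genes of adjusted p under 0.05 in red and the median of each list as a bar. The medians are 0.26 for the other sensors and 0.22 for the caspases, and 0.13 or less for the other 4 lists.

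**Figure D5:**
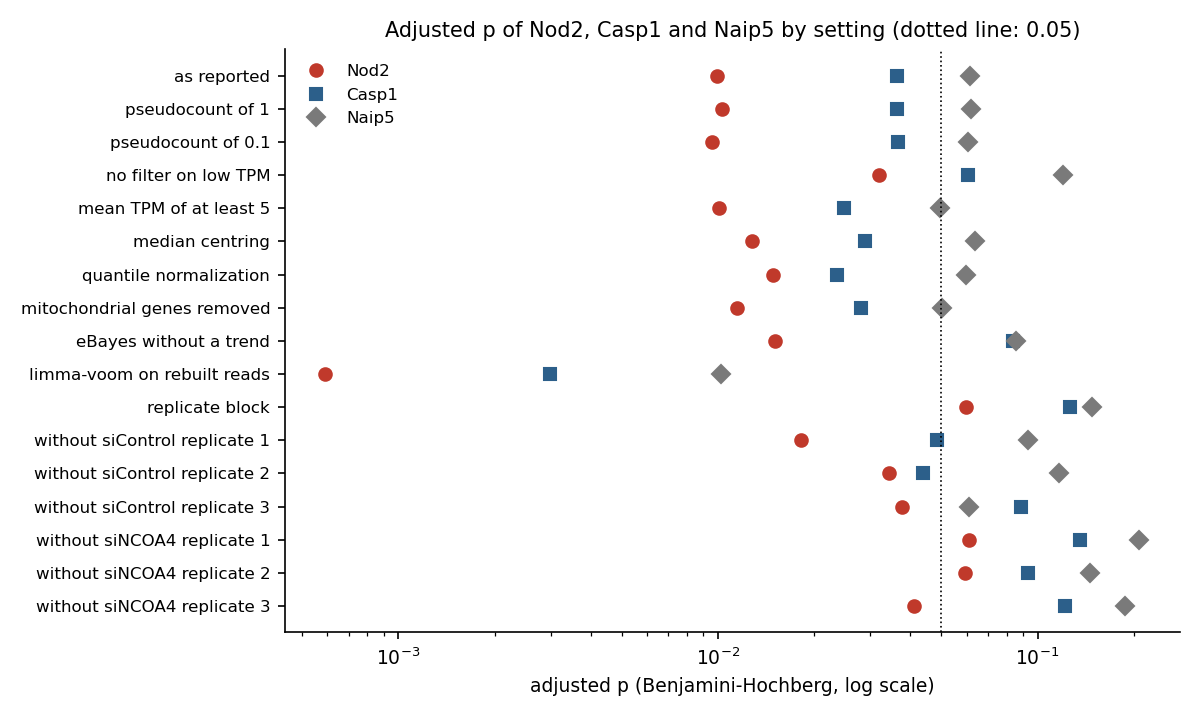
Adjusted p (x axis, log scale) of Nod2, Casp1 and Naip5 as reported and under 16 alternative settings, with a dotted line at 0.05. Nod2 lies left of the line in 13 of the 16 alternatives, Casp1 in 9 and Naip5 in 2.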

How the data were processed

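The authors deposited TPM per library for 55487 Ensembl mouse genes, without further scaling between libraries. The submitters' processing notes list Trimmomatic 0.33, FastQC, HISAT2 2.1.0, featureCounts and edgeR with the build mm10. Libraries were made with a stranded mRNA kit. The annotation and strand setting of the counting are not given in the sources used here. Names and positions came from GENCODE M21 (GRCm38), which held 55227 of the identifiers.

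Groups came from the sample titles. The test was limma 3.58.1 (R 4.3.3) for genes averaging at least 0.5 TPM, after log2(TPM + 0.5), using eBayes with a trend and no blocking, and Benjamini-Hochberg adjustment. The deposited unit is TPM, so the main test was on the log scale and the study's edgeR test was not used, while its thresholds of 0.05 and 1.5-fold were kept. TPM times gene length gave whole reads (within 0.01) for all 21096 genes above 0, of which 337, Casp1 among them, needed an inferred length, and limma-voom on these reads was an alternative. Permutation tests were exact and two-sided over 20 arrangements. The fit was tested on simulated data with the same spread in every library and with changes larger than those of the 10 genes. That simulation does not cover the deviation of control replicate 1 or changes as small as most of those reported here. Genes named are the 10 members, Ncoa4 and, of each list, those that passed plus the most abundant pair that did not, apart from some that are not reported here. The members and lists were chosen with earlier results of these data known. The 16 alternatives changed the pseudocount, filter, scaling, variance trend, test, block or libraries.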

Additional observations from a re-analysis of the deposited data

How the results depend on the processing

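The increase of Nod2 kept its direction under all 16 alternatives (log2 fold change 0.62 to 0.78) and that of Casp1 as well (0.27 to 0.37), with adjusted p-values between 0.000592 and 0.0612 and between 0.00299 and 0.136. The knockdown of Ncoa4 kept its call in all of them. As reported, 750 genes had an adjusted p under 0.05, 163 of them also passed the 1.5-fold limit, and 2 of the 10 genes and 14 of the 79 pathway genes passed. Without the filter on low TPM, the counts of genes with an adjusted p under 0.05, of the 10 genes and of the pathway genes were 499, 1 and 6. Without a trend in eBayes they were 404, 1 and 7. With limma-voom they were 1499, 3 and 20. Leaving out a single library gave 174 to 841 genes with an adjusted p under 0.05, 93 to 173 also past 1.5-fold, 0 to 2 of the 10 genes and 0 to 13 pathway genes. The labels do not say whether same-numbered libraries were prepared together. Across genes, same-numbered libraries deviated from their group means with correlations of 0.028, -0.019 and 0.023. Such values show no shared shift, but with 3 libraries per group they cannot exclude a pairing. With the replicate number as a block, 161 genes had an adjusted p under 0.05, 87 also passed 1.5-fold, and 0 of the 10 genes and 0 pathway genes passed, against 3 of the 10 and 21 higher and 2 lower pathway genes of 79 at an unadjusted p under 0.05 (11.2% higher and 7.72% lower over all genes tested). By that fit Nod2 had an adjusted p of 0.0599. Values that changed sign were all close to 0. The log2 fold change of Pycard was -0.031 after median centring and ranged from -0.0048 to 0.069 when single libraries were left out, being negative when control replicate 1 (-0.0048) or NCOA4 siRNA replicate 2 (-0.0013) was missing. That of Aim2 was 0.0039 with limma-voom and ranged from -0.051 to 0.043 over the omitted libraries, being positive in the absence of the same libraries. The cause of these differences was not tested. Nod1 and Casp4 have a mean below 5 TPM and were not tested under that filter. Nod1 rests on 31 to 57 reads per library, the fewest of the 10 genes.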
